A study of Homo sapiens with 4 samples.

Results

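ETS1-RUNX1 regions outside genes were stretches of DNA in 6T-CEM cells that carried CUT&Tag peaks of both transcription factors and lay away from protein-coding genes. They numbered 770 of the 5055 ETS1 regions found in both ETS1 libraries, beside 2874 shared regions at gene ends and 1309 inside genes. Touching peaks of both libraries of a factor were merged on chromosomes 1 to 22 and X, and a region was kept when it held a peak of each library. An ETS1 region was a member when it overlapped a RUNX1 region by at least 1 bp, its midpoint lay outside every protein-coding gene, and that midpoint was more than 1000 bp from every protein-coding gene end. The members were thus chosen by the measured peaks, so their number, fold, width and summits are given as descriptions with no test. The number depended on the peak calls and the overlap: it was 344 after peaks below −log10 q of 20 were dropped, 302 under a reciprocal overlap of 50%, 507 with only the 5611 peaks of highest −log10 q kept in every library, and 369 outside genes of any type.

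6T-CEM is a human line of T-cell acute lymphoblastic leukaemia (T-ALL). In CUT&Tag an antibody brings a transposase to the protein it binds, and the DNA cut around that protein is sequenced. There were 2 libraries made with an ETS1 antibody (Santa Cruz, sc-55581) and 2 made with a RUNX1 antibody (Abcam, ab272456), all from 6T-CEM cells with no other treatment named, and IgG served as the control in the peak calls. The labels do not say whether the 2 libraries of an antibody came from different cultures, so p-values here measure the spread between these libraries, which may be technical. All values come from a single line. Peaks measure no RNA, so the T-cell label was not checked against expression, and a region near a gene is named by position only.

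ETS1 belongs to the ETS family, whose members recognise DNA with a GGAA core, and it is abundant in lymphocytes. RUNX1 binds DNA with its partner CBFB and is needed for blood stem cells and for T-cell development. ETS1 and RUNX1 are known to bind together at composite sites of T-cell enhancers, among them those of the T-cell receptor genes, and enhancers often lie far from the genes they act on. DNA outside protein-coding genes also holds promoters of genes for long non-coding RNAs (lncRNAs), microRNAs, spliceosomal RNAs and transfer RNAs.

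No genome sequence was used, so sequence could be read only where a RefSeq promoter window (GRCh38.p14, the assembly of hg38) covered a member. Each window holds 300 bases, 250 before a transcript start and 50 after it. Windows of 114 lncRNA starts overlapped a member, and 45 of them, in 40 members, held the ETS1 summits of both libraries. Of these 45 windows, 34 also held both RUNX1 summits. The following 5 are printed 5′ to 3′ on the strand of the lncRNA, because they belong to members described below and hold different numbers of these motifs. Capitals mark GGAA, the core of ETS sites, CCGGAAGT, a longer ETS form that contains GGAA, and the RUNX cores TGTGGT and TGCGGT, each on either strand.
SNHG29: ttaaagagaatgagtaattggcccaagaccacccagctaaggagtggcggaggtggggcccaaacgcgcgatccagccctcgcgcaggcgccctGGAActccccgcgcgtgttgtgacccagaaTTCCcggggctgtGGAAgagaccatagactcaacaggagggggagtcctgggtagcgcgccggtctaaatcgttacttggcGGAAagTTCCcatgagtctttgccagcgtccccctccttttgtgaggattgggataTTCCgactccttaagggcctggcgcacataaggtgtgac
LOC105378541: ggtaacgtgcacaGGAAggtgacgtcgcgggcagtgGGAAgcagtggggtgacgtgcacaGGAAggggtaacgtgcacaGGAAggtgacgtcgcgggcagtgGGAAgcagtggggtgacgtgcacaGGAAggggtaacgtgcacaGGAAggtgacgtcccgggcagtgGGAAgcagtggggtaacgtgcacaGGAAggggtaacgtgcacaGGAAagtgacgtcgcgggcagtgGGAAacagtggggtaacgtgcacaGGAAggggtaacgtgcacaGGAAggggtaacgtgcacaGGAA
MIATNB: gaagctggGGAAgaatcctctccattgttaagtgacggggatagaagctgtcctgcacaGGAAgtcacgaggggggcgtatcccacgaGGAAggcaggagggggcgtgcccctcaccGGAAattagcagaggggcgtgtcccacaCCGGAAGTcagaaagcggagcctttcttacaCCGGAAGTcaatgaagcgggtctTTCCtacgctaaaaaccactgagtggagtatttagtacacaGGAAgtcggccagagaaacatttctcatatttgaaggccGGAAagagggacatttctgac
LOC101929333: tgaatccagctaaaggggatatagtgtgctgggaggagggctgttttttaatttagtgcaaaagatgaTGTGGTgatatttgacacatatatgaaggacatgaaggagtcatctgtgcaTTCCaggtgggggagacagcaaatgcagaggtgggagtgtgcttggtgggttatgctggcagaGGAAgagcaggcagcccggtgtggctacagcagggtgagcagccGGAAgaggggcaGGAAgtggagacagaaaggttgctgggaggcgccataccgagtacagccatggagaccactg
LEF1-AS1: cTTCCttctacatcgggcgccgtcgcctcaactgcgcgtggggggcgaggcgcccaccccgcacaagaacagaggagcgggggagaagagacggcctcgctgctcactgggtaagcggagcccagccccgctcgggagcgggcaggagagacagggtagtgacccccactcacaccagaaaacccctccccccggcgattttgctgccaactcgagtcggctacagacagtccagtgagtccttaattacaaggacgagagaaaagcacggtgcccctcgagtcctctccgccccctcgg

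These windows lay at chr17:16438737-16439036 (plus strand, SNHG29), chr10:125228267-125228566 (plus, LOC105378541), chr22:26672593-26672892 (plus, MIATNB), chr15:74490235-74490534 (minus, LOC101929333) and chr4:108171870-108172169 (plus, LEF1-AS1). In the SNHG29 window both ETS1 summits were on base 97, counted from 1 at the 5′ end, which is 0.5 bases from the centre of a GGAA. The LOC105378541 window held 14 GGAA matches spaced 19 to 24 bases apart, and it was a tandem repeat: 213 of 234 bases (91.03%) equalled the base 66 positions further on. Its ETS1 summits, on base 174 in both libraries, were 3.5 bases from a GGAA. The MIATNB window held 9 GGAA matches, 2 of them within the longer CCGGAAGT, with the ETS1 summits 12.5 bases from the nearest. The LEF1-AS1 window held a single GGAA match, 117.5 bases from the ETS1 summits, and no RUNX core. The RUNX1 summits of both libraries lay outside that window, as they did for LOC105378541. These windows therefore do not show the sequence at those RUNX1 summits.

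A GGAA match was too common to set members apart: it was present in 97.8% of the 45 lncRNA windows with ETS1 summits and in 95.98% of all 12829 lncRNA windows. CCGGAAGT was present in 3 of 45 windows (6.67%), beside 2.07% of all. TGTGGT was present in 4 of 45 (8.89%), beside 16.2% of all, and TGCGGT in 4 of 45 (8.89%), beside 5.17% of all. The windows also differed in base composition, with a median of 65.7% G and C in the 45 and 50% in all lncRNA windows, and the part of composition in these shares was not tested.

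The microRNA genes at members included MIR142, which is abundant in blood cells, MIR210, known for its induction by low oxygen, and the clusters MIR132-MIR212, MIR301B-MIR130B and MIR23A-MIR27A-MIR24-2. Of 15 microRNA genes at members, 14 had a mature sequence in RefSeq. A few are printed 5′ to 3′ to show what lay at or beside these regions, with the seed (bases 2 to 8), which pairs with target RNAs, in capitals. The sequences of hsa-miR-130b-3p, hsa-miR-301b-3p and hsa-let-7i-5p lie outside the member they are close to, and the others inside it.
hsa-miR-142-3p: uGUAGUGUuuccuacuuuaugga
hsa-miR-142-5p: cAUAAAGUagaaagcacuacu
hsa-miR-210-3p: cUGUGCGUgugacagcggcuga
hsa-miR-132-3p: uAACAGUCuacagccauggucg
hsa-miR-212-3p: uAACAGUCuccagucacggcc
hsa-miR-130b-3p: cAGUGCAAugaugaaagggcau
hsa-miR-301b-3p: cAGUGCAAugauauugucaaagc
hsa-miR-23a-3p: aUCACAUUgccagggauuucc
hsa-let-7i-5p: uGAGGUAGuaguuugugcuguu

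The pair hsa-miR-132-3p and hsa-miR-212-3p shares the seed AACAGUC, and the pair hsa-miR-130b-3p and hsa-miR-301b-3p shares AGUGCAA. Each pair lies at a single member.

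Most members had a higher RUNX1 fold than ETS1 fold over IgG. Fold here is the authors' own enrichment of a library over IgG at the summit, and the RUNX1 value of a member is that of the RUNX1 region it overlaps. The median ETS1 fold was 5.98 in library 1 and 5.95 in library 2, and the median RUNX1 fold 20.6 and 20.5. ETS1 fold ran from 2.32 to 109.7 and RUNX1 fold from 2.21 to 777.4 (means of both libraries), with 10% of members above 11.2 for ETS1 and 59.5 for RUNX1. RUNX1 fold was at least 10 at 650 members (84.4%) and ETS1 fold at 106 (13.8%). ETS1 fold exceeded RUNX1 fold at 29 members (3.77%), against 2.67% of shared regions inside genes and 7.97% of those at gene ends. The folds come from different antibodies whose efficiency was not compared, so here and below they do not rank the amounts of both proteins.

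The stack of reads or fragments at the summit was solved from the deposited fold and −log10 p. At members, ETS1 libraries 1 and 2 had a median stack of 53 and 47, and RUNX1 libraries 1 and 2 of 218 and 204, over IgG expectations of 8.0, 7.10, 9.65 and 9.17. A single fold of a weak member therefore rests on few reads: 10% of members had an ETS1 stack of 31 or fewer in library 1. Between libraries of the same antibody, Spearman's rho across the 770 members was 0.915 for ETS1 fold and 0.984 for RUNX1 fold. Between ETS1 and RUNX1 it was 0.354, with IgG in the denominator of both. Members are not independent replicates, so these are descriptions. The RUNX1 region of 69 members also held another member.

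The summits of both factors usually lay close together at members, which were chosen by overlap of the regions. The RUNX1 summit lay inside the ETS1 region at 695 members (90.3%), and summits were within 100 bp at 502 (65.2%). The median distance, averaged over both libraries for each member, was 59.75 bp. By library the median was 52.5 and 55.5 bp at members. It was similar at shared regions at gene ends (58 and 59 bp) and inside genes (70 and 69 bp). At 57 members (7.40%) the summits were more than 1000 bp apart, within RUNX1 regions of up to 10810 bp. The ETS1 regions were compact, with a median width of 622 bp at members, 684 bp inside genes and 706 bp at gene ends. The RUNX1 regions over members had a median of 1523 bp, counted once per member. With each region counted once, the 722 RUNX1 regions outside genes with ETS1 had a median of 1445.5 bp. The 5407 RUNX1 regions outside genes without ETS1 had 700 bp, and their median RUNX1 fold was 7.63 and 7.78. The 722 regions with ETS1 had a higher median RUNX1 fold, 20.3 and 20.2, and a wide region overlaps an ETS1 region more readily. The part of the overlap rule and of the fold in this difference in width was not tested.

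**Figure D1:**
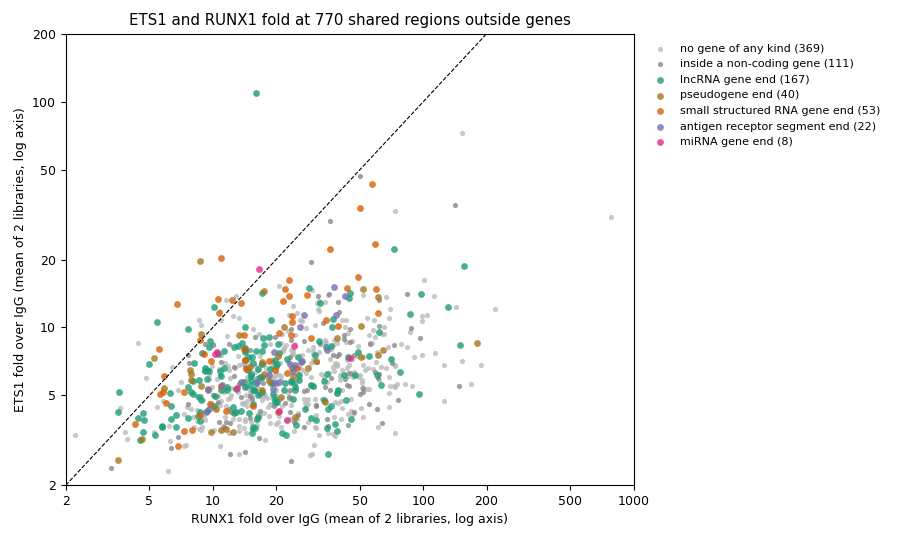
Mean ETS1 fold over IgG (vertical, log axis) against mean RUNX1 fold (horizontal, log axis) at the 770 members, 1 point per region, coloured by the gene type at the region. The dashed line marks equal fold; 29 points lie above it, and the orange points of small structured RNA genes are frequent among those near or above it.

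The limit of 1000 bp cut through regions with both factors. The nearest 3 inside it were beside ABHD16B (1005 bp from its end, ETS1 fold 5.06, RUNX1 fold 16.5), ERBIN (1019 bp, 3.33 and 31.9) and FSCN2 (1019 bp, 6.54 and 10.6). The nearest 3 outside it were beside EOLA2 (995 bp, 6.68 and 29.6), ANKRD13D (991 bp, 8.94 and 37.5) and NLK (981 bp, 10.7 and 30.5). In these 6 regions the ETS1 fold was higher outside the limit. Over all regions it was not: the median ETS1 fold was 5.98 and 5.95 at members, beside 5.81 and 5.81 at shared regions at gene ends.

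Many members lay at the ends of genes that make no protein. Within 1000 bp of an end of a non-coding gene, pseudogene or antigen receptor segment were 290 of 770 members (37.7%, 95% Wilson interval 34.3 to 41.1), against 867 of 5407 RUNX1 regions outside genes without ETS1 (16.0%, 15.1 to 17). These intervals, like all below, cover counting error only, and regions of a library are not replicates. By type, 180 members were at an end of a lncRNA gene, 57 of a pseudogene, 53 of a small structured RNA gene, 22 of an antigen receptor segment and 10 of a microRNA gene, and a member can count for several types. A further 111 lay inside a non-coding gene away from its ends, and 369 (47.9%) at no gene of any kind.

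The gene table allowed a comparison over the 4 libraries that the choice of members did not fix, using all peaks outside genes. Of these peaks, 34.0% of 1013 and 35.5% of 905 in the ETS1 libraries had their summit at a non-coding gene end, against 17.99% of 6944 and 17.9% of 6846 in the RUNX1 libraries. Both ETS1 values were above both RUNX1 values. ETS1 averaged 34.7% ± 1.07 and RUNX1 averaged 17.9% ± 0.0762 (SD, n = 2 each), a difference of 16.8 percentage points that exceeds the spread between libraries. The exact permutation test gave p = 0.333 (two-sided, n = 2 against 2), which is the smallest p that this design allows. ETS1 peaks outside genes were also closer to coding genes, with a median of 14002 and 13923 bp from the nearest protein-coding gene end, against 18017.5 and 18142.5 bp for RUNX1 peaks. The difference of −4117.5 bp had the same exact permutation p of 0.333.

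**Figure D2:**
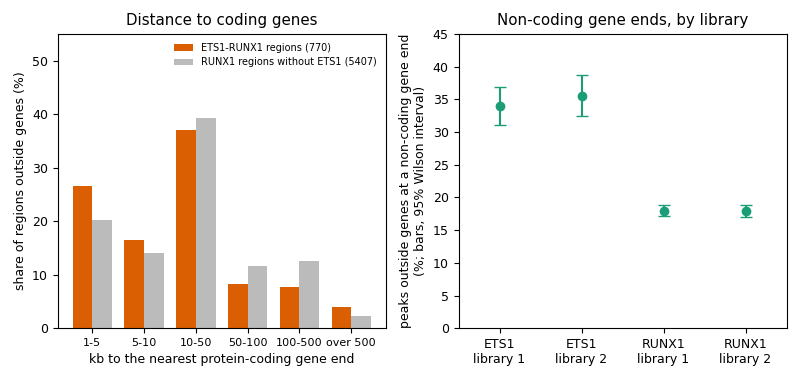
Left, share of regions by distance to the nearest protein-coding gene end in kb, for the 770 members (orange) and the 5407 RUNX1 regions outside genes without ETS1 (grey); 26.5% of members and 20.2% of the others lie 1 to 5 kb away. Right, share of peaks outside genes whose summit lies at a non-coding gene end in each library, with 95% Wilson intervals; the ETS1 libraries lie at 34.0% and 35.5%, above both RUNX1 libraries.

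Seen from RUNX1, the presence of ETS1 depended on the gene type. Of the 6129 RUNX1 regions outside genes, 722 (11.8%) overlapped an ETS1 region. That share was 36.6% with equal numbers of peaks per library and 4.94% under a reciprocal overlap of 50%. It was 80% at ends of small nuclear RNA (snRNA) genes (24 of 30, interval 62.7 to 90.5) and 60% at small nucleolar RNA (snoRNA) genes (9 of 15, 35.7 to 80.2). It was 32.3% at microRNA genes (10 of 31, 18.6 to 49.9), 28.2% at antigen receptor segments (22 of 78, 19.4 to 39.0) and 25.9% at transfer RNA genes (14 of 54, 16.1 to 38.9). At lncRNA gene ends it was 21.9% (160 of 729, 19.1 to 25.1) and at pseudogenes 20.1% (56 of 278, 15.9 to 25.3). Away from any gene it was 9.02% (350 of 3881, 8.16 to 9.96), below the 11.8% of all. Types with 7 or fewer regions (rRNA with 3 of 6, scRNA with 1 of 1, misc_RNA with 1 of 7 and others with 0 of 2) are too few to rank. The counts at snRNA and snoRNA genes are small and their genes come in near-identical copies.

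**Figure D3:**
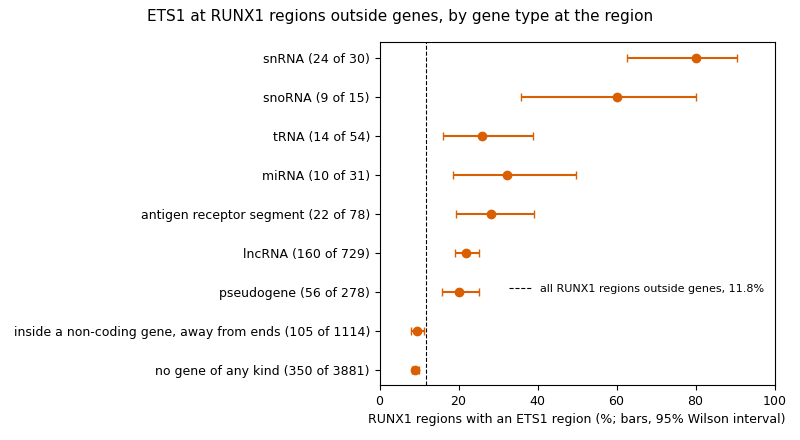
Share of RUNX1 regions outside genes that overlap an ETS1 region (horizontal, %), by the gene type at the region, with counts in the labels and 95% Wilson intervals as bars. The dashed line is the 11.8% of all such regions; of the types drawn, snRNA genes lie highest at 80% and regions at no gene lowest at 9.02%. Types with 7 or fewer regions are not drawn.

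Members at spliceosomal snRNA genes included some of the highest ETS1 folds. snRNAs form the core of the spliceosome, which removes introns, and their short genes have strong promoters. Of all 38598 non-coding genes and pseudogenes 0.92% had a member within 1000 bp of an end, and of the 1892 small structured RNA genes 3.33%. Members lay at 4 of 5 U5 genes (RNU5A-1, RNU5B-1, RNU5D-1 and RNU5E-1), with ETS1 fold of 9.29 to 13.9 and RUNX1 fold of 23.1 to 34.6. They lay at 6 of 21 U1 genes, with ETS1 fold of 6.30 to 15.0 and RUNX1 fold of 14.3 to 43.6, and at 1 of 6 genes of U6 and U6ATAC, RNU6ATAC of the minor spliceosome, with 11.2 and 23.8. Of the 2 U2 genes RNU2-1 had a member, with ETS1 folds of 6.90 and 7.29 and a RUNX1 fold of 9.78 in both libraries.

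Beside RNU2-1 and CCDC200 on chromosome 17, 9 members stood in a row: the one at RNU2-1 and 8 at snRNA genes that RefSeq lists by number only. At chr17:43240541-43241213 the ETS1 fold was 47.4 and 39.3 (mean 43.4 ± 5.71, SD, n = 2) and the RUNX1 fold 57.9 and 55.8 (56.9 ± 1.53). The ETS1 stack there was 119 and 93 over an IgG expectation of 1.53 and 1.39, the lowest expectation of each library. At chr17:43246383-43246766, a few kb away, the stacks were larger (244 and 222 for ETS1) while the fold was 4.67 and 4.63, over an IgG expectation of 51.5 and 47.1. Of the 9 members, 4 had the lowest IgG expectation of ETS1 library 1, and they had ETS1 folds of 14.6 to 47.4 in that library. The part of the IgG level in these folds was not tested. The IgG expectation was at its lowest in 14 members in ETS1 library 1, and the class of small structured RNA genes had a median of 5.85 there, against 8.0 at members away from any gene. How reads that match several copies were placed is not given in the sources used here, so the copy is uncertain.

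U3 snoRNA genes, whose RNA guides the processing of ribosomal RNA, had a member at 4 of 5 copies, SNORD3A, SNORD3B-1, SNORD3B-2 and SNORD3D. ETS1 fold ran from 6.45 to 14.8 and RUNX1 fold from 18.5 to 60.9. Of 424 transfer RNA genes, 28 had a member at an end (6.60%, beside the 3.33% of small structured RNA genes), through 17 members, with a median ETS1 fold of 6.07 and RUNX1 fold of 9.69. Near CTC1 a member at 3 transfer RNA genes (chr17:8221210-8223775) had an ETS1 fold of 12.9 and 13.9 and a RUNX1 fold of 9.996 and 11.1. Across the 53 members at small structured RNA genes the median was 8.89 and 8.998 for ETS1 and 14.7 and 15.5 for RUNX1, beside 5.81 and 5.81 for ETS1 and 22.7 and 23.2 for RUNX1 at members with no gene. These members thus stood higher in ETS1 fold and lower in RUNX1 fold than members away from genes, which is a description of the authors' folds with no test. Their median ETS1 stacks were close, at 55 and 53, beside 50 and 45 at members with no gene. The median IgG expectations of the ETS1 libraries were 5.85 and 5.05, beside 8.0 and 6.96. The RUNX1 stacks were 141 and 125, beside 249 and 240. The part of the IgG level in the difference in ETS1 fold was not tested.

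Antigen receptor loci held members of different kinds. These loci are assembled from variable (V), joining and constant segments by recombination in lymphocytes, and T-cell receptor enhancers are known to bind ETS1 and RUNX1. The immunoglobulin heavy-chain locus held 24 members, the light-chain locus IGL 3, the T-cell receptor loci TRB 3 and TRA 1, and IGK, TRG and TRD none. At TRB, between the constant segment TRBC2 and TRBV30, where the known enhancer of the locus lies, chr7:142808547-142809567 had an ETS1 stack of 372 and 322 and a RUNX1 stack of 1648 and 1681. The summits there were 3 bp apart. Downstream of the constant segment TRAC, where the known enhancer of TRA lies, chr14:22555853-22557387 had an ETS1 fold of 12.3 and 12.4 and a RUNX1 fold of 134.7 and 128.9. Its summits were 9 bp apart, and it lay 8287 bp from the end of DAD1, which encodes a subunit of oligosaccharyltransferase. Both regions were among the highest members for RUNX1 fold (137.1 and 146.5 at the TRB region), with 10% of members above a fold of 59.5.

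In the heavy-chain locus 21 of the 24 members lay on V segments. The other 3 lay 2304 bp from the constant segment IGHA2 (ETS1 folds of 2.173 and 2.60, RUNX1 folds of 3.17 and 3.42), 4922 bp from IGHV1-2 (6.89 and 6.96, with RUNX1 folds of 67.7 and 74.1, the highest of the locus) and 2047 bp from IGHV3-37 (5.52 and 5.42, with RUNX1 folds of 35.3 and 32.97). Of 87 IGHV segments, 52 had a RUNX1 region within 1000 bp of an end and 21 a member. All 21 had the midpoint inside the segment, which spans 404 to 456 bp, and they covered a median of 95.2% of it (52.5% to 100%). The ETS1 and RUNX1 summits were 0.5 to 183 bp apart, with a median of 28.5 bp. These segments encode parts of antibodies, which T cells do not make, and 2 of the 21 segments are pseudogenes.

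Fold differed by V family, a split made after the values were seen. The IGHV1 family had 9 members on 15 segments, with ETS1 fold of 6.17 to 15.1 (median 10.1) and RUNX1 fold of 18.6 to 42.7 (median 26.7). The IGHV3 family had 4 members on 48 segments, with ETS1 fold of 4.22 to 5.72 and RUNX1 fold of 9.29 to 19.3, although 25 of its segments had a RUNX1 region. These are means of both libraries, and in library 1 alone the ETS1 folds of the families overlapped (5.60 at IGHV1-24 and 6.73 at IGHV3-13). The mean ETS1 folds of the IGHV2 (5.55 to 7.77), IGHV4 (4.33 to 7.95) and IGHV7 members (5.71 to 6.91) overlapped those of both families. IGHV1-69 had an ETS1 fold of 15.9 and 14.4 and a RUNX1 fold of 38.3 and 37.4, IGHV1-3 of 13.7 and 13.96 and of 44.6 and 40.8. Segments of a family share much of their sequence, IGHV1-69 and IGHV1-69D most of all, so they are not separate samples and reads may be placed on the wrong copy. The IgG expectation at these 21 members was 2.34 to 17.6 in ETS1 library 1.

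**Figure D4:**
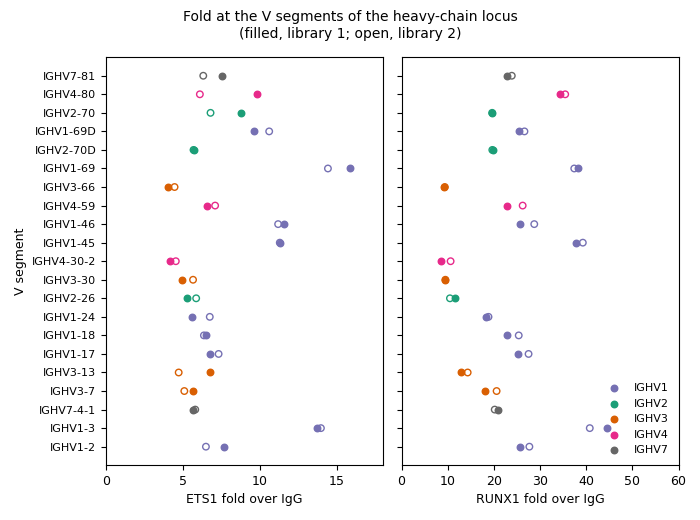
ETS1 fold (left) and RUNX1 fold (right) over IgG at the 21 members on heavy-chain V segments, in the order of the locus, coloured by V family, with library 1 filled and library 2 open. The IGHV1 segments hold the highest ETS1 fold (IGHV1-69 and IGHV1-3), and the IGHV3 segments lie at 6.73 or lower in each library.

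Genes of T-cell receptor signalling were often near a member. Within 100 kb of 10 of 29 such genes (34.5%) lay at least 1 member, against 11.7% of the 19821 protein-coding genes used. The lists were chosen with earlier results of these data known, and genes in gene-dense regions have more neighbours, so the shares are read as descriptions. LCK, which encodes the kinase that starts receptor signalling, had a member 65338 bp away with ETS1 folds of 8.44 and 9.79 and RUNX1 folds of 18.2 and 18.8, at the paired starts of LOC105378629 and LOC124903933. The coding gene nearest to that member was FAM229A. LAT, a membrane adaptor, had members 18716 and 38673 bp away, with mean ETS1 fold of 6.49 and 6.39 and RUNX1 fold of 41.2 and 37.5. PTPRC, which encodes the phosphatase CD45, had a member 17325 bp from its end with ETS1 folds of 7.05 and 6.14 and RUNX1 folds of 27.3 and 24.5. CD4, LCP2, CD5, CD6 and UBASH3A were among the others, beside CD7, with CD5 and CD6 counted through the same member. The members of CD4 were nearest to PIANP and LAG3, and they also counted for LAG3 among the inhibitory receptors below.

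CD7, an early T-cell surface protein that T-ALL cells usually keep, had 6 members within 100 kb, the most of any gene in this list. A row of 4 spanned 11495 bp at chr17:82292511-82304005 with mean ETS1 folds of 8.42, 5.15, 4.43 and 6.01. The last 3 share a RUNX1 region with fold of 69.9 and 67.9, and CD7 was their nearest coding gene. The nearest of them was 11208 bp from CD7. The first of the row was nearest to CSNK1D and lay at an end of LINC01970. Members outside the row were nearest to CSNK1D or UTS2R.

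Of 30 T-ALL and T-lineage transcription factors, 8 had a member within 100 kb (26.7%, beside the 11.7%). That share was 13.3% after weaker peaks (−log10 q below 20) were dropped, 10% under reciprocal overlap or outside genes of any type, and 36.7% without replicate 1. LEF1 had a member 3418 bp from its end, over the LEF1-AS1 window printed above, with ETS1 folds of 10.7 and 9.66 and RUNX1 folds of 62.1 and 61.0. There the summits of the factors were 377.5 bp apart. TCF12, which encodes an E protein, had a member 32865 bp away with ETS1 folds of 15.2 and 14.8, the highest ETS1 values of this list, and RUNX1 folds of 27.6 and 29.7. IKZF3 (Aiolos) had 2 members, the stronger 88833 bp away with ETS1 folds of 10.3 and 11.7 and RUNX1 folds of 68.9 and 68.0, and IKZF1 (Ikaros) had 1 of 4.50 and 4.05 and of 45.5 and 44.8. The coding gene nearest to the stronger IKZF3 member was LRRC3C. LYL1, whose members were nearest to IER2, MEF2C, RUNX3 and ID3 completed the list.

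In the NOTCH list, 3 of 15 genes (20%) had a member within 100 kb, beside the 11.7% of all protein-coding genes. NOTCH1, whose activating mutations are frequent in T-ALL, had 2, at 41755 and 54192 bp, the stronger with ETS1 folds of 7.05 and 7.48 and RUNX1 folds of 47.8 and 43.8. HES1, a NOTCH target, had 2 at 1260 and 3129 bp, and HES5 had 1 at 16674 bp that was nearest to TNFRSF14. Among homing and adhesion genes 5 of 15 had a member (33.3%, beside the 11.7%): CCR7 with 3, CXCR5, ITGAL, ITGB2 and CORO1A. The members of CXCR5, ITGAL, ITGB2 and CORO1A were nearest to other coding genes (BCL9L, SEPHS2, SLX9 and MAPK3). Of the CCR7 members only the nearest had CCR7 as its nearest coding gene. The nearest to CCR7, a receptor that guides T cells to lymph nodes, was 12256 bp away with a mean ETS1 fold of 4.13 and RUNX1 fold of 43.8. The inhibitory receptor gene PDCD1 had a row of 4 members over 7646 bp at chr2:241881107-241888752, with mean ETS1 folds of 8.96, 5.70, 2.56 and 9.84. They lay 22935 to 29486 bp from PDCD1, and their nearest coding gene was RTP5 or FAM240C. A member lay within 100 kb of 5 of 21 cytokine and survival genes (23.8%). Among them were SOCS1, BCL2, and IL4R and IL21R, which counted through the same member. For costimulatory and inhibitory receptors it was 3 of 19 (15.8%), near the 11.7%.

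Other lists lay on either side of the 11.7% of all protein-coding genes. PI3K-AKT-mTOR genes had a member near 2 of 18 (11.1%), cell-cycle genes near 2 of 21 (9.52%) and genes of V(D)J recombination and thymocyte stages near 1 of 16 (6.25%). Markers of other lineages were not low throughout. Of 12 B-lineage markers, 5 had a member within 100 kb (41.7%), among them CD79B, BLNK, IGLL1 and VPREB1. VPREB1 lies in the IGL locus. Erythroid and megakaryocyte markers gave 3 of 12 (25%), myeloid markers 2 of 12 (16.7%, MPO, beside MIR142, and CSF3R) and non-blood markers 1 of 16 (6.25%). Members within 100 kb were thus found near marker genes of other lineages too.

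**Figure D5:**
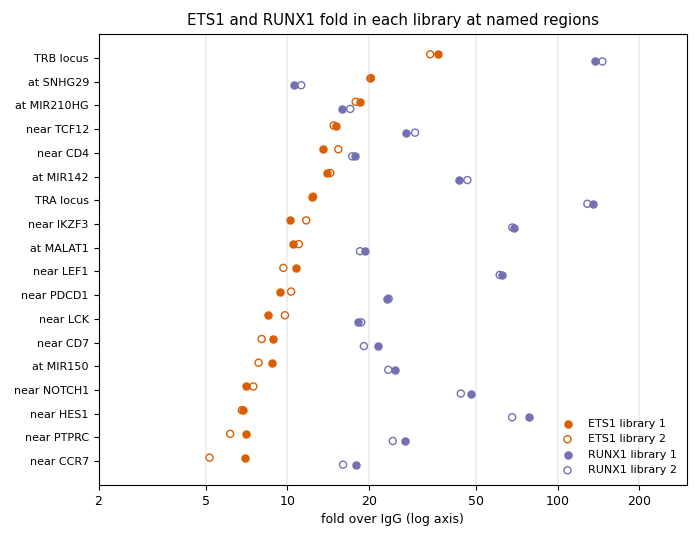
Fold over IgG (log axis) in each of the 4 libraries at 18 members named here, 1 row per locus (the member of highest ETS1 fold there, loci chosen after values were seen), in order of ETS1 fold; ETS1 is orange and RUNX1 violet, with library 1 filled and library 2 open. RUNX1 exceeds ETS1 in most rows, and ETS1 exceeds RUNX1 at SNHG29 and MIR210HG.

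A list of RNA genes, some of blood cells and some general such as RNU1-1, had members within 100 kb of 12 of 35 (34.3%). The share was 9.23% of the 21726 lncRNA, microRNA and small structured RNA genes used. The list also held TUG1, which RefSeq gives as protein-coding. The 12 are not separate: NEAT1 and MALAT1 counted through the same members, as did DLEU1 and DLEU2. THRIL counted through a member 85311 bp away at transfer RNA genes. MIR142 had 4 members in a row of 8851 bp at chr17:58330754-58339604, over a single RUNX1 region of fold 43.2 and 46.3. The one that holds the MIR142 hairpin had ETS1 folds of 13.98 and 14.4 and the other 3 mean ETS1 folds of 7.34, 8.64 and 6.27. MIR150, a microRNA of mature lymphocytes, had a member at its end with ETS1 folds of 8.77 and 7.82 and RUNX1 folds of 25.1 and 23.6. MIR210 and its host gene MIR210HG had ETS1 folds of 18.5 and 17.9 and RUNX1 folds of 15.9 and 17.1, so the ETS1 fold was slightly higher in every library. MIR132-MIR212 (ETS1 7.81, RUNX1 10.4) and MIR301B-MIR130B (7.64 and 10.3) also had fold of similar size for both, while the MIR23A cluster had 3.90 and 22.5 (means of both libraries).

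At lncRNA starts the balance of the folds of both factors varied. The SNHG29 member, at a host gene of snoRNAs, had ETS1 folds of 20.2 and 20.4 and RUNX1 folds of 10.6 and 11.2, so the ETS1 fold was higher in every library. LOC105378541, the window with the tandem GGAA repeat, had ETS1 folds of 11.3 and 9.93 and RUNX1 folds of 6.38 and 4.49, again with the ETS1 fold higher. LOC101929333, whose window holds TGTGGT, had ETS1 folds of 16.2 and 17.2 and RUNX1 folds of 48.4 and 49.7. MALAT1, an abundant nuclear RNA, had ETS1 folds of 10.5 and 11.02 and RUNX1 folds of 19.4 and 18.6, and its neighbour NEAT1, the scaffold of paraspeckles, had its 3 nearest members at lower ETS1 fold (6.61, 5.63 and 6.55 on average). DLEU2, which hosts MIR15A and MIR16-1 and is often deleted in leukaemia, had 3 members with mean ETS1 folds of 5.78, 10.03 and 6.68 and RUNX1 folds of 8.03, 14.2 and 14.2. MIATNB had 8.25 and 8.29 for ETS1 and 12.9 and 13.3 for RUNX1.

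Of the 10 members with the highest mean ETS1 fold, 3 lay at snRNA genes, the pair by CCDC200 and one at SEC22B4P and LOC124904613 on chromosome 1 (ETS1 folds of 23.7 and 23.1, RUNX1 folds of 56.7 and 61.2). A pair on chromosome 21 near LOC102724560 had nearly equal fold of both factors: ETS1 folds of 47.8 and 45.6 and RUNX1 folds of 48.9 and 51.3 at chr21:6371065-6372255, with summits 2.5 bp apart. Its neighbour at chr21:6369701-6370280 had ETS1 folds of 28.1 and 30.97 and RUNX1 folds of 36.2 and 35.6. A member near MYO18B on chromosome 22 had ETS1 folds of 34.8 and 31.1 and RUNX1 folds of 73.7 and 72.96, with summits 515.5 bp apart. The others were those near NADK, LMLN and the enhancer of TRB, and one on chromosome 12. A member on chromosome 11 at no gene of any kind had ETS1 folds of 12.5 and 11.6 and RUNX1 folds of 212.1 and 226.5. Its nearest protein-coding gene, 244566 bp away, was B3GAT1, which encodes the enzyme that makes the CD57 epitope.

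The highest ratios of ETS1 fold to RUNX1 fold were found at different kinds of sequence. Besides the member near NADK (ratio 6.82, from 109.7 and 16.1), they were at the pseudogene ANAPC1P2 (2.26, from 19.7 and 8.74), at LOC105378541 (1.95), near TMEM121 at chr14:105520870-105521315 (1.95, from 8.56 and 4.399) and at the ribosomal RNA gene RNA45SN2 (1.88, from 12.7 and 6.77). ANAPC1P2 and RNA45SN2 belong to multicopy sequence, as does SLC35E2A at the NADK member. The lowest ratios, 0.03 to 0.04, were at members with RUNX1 fold of 125.1 to 777.4, among them those near IER5 on chromosome 1, PPCDC on chromosome 15, and KPNA2 and METRNL on chromosome 17.

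Most members stood alone. When members within 10000 bp of each other were joined, 589 were single, 64 groups held 2, 10 held 3, and 5 held 4 to 6. The largest group was the snRNA row by CCDC200 (6 members), followed by 5 members over 29645 bp between CYP11A1 and SEMA7A on chromosome 15 (chr15:74374163-74403807), which encode the side-chain cleavage enzyme of steroid synthesis and a semaphorin of activated T cells. The median member was 13673.5 bp from the nearest protein-coding gene end, and 90 members lay more than 100000 bp away. The farthest was on chromosome 4, 1769360 bp from PCDH10, with ETS1 folds of 6.12 and 4.95 and RUNX1 folds of 59.8 and 66.1. Of the 5 farthest, 3 were V segments at the upper end of the heavy-chain locus and 1 lay at LINC00662 on chromosome 19.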

How the data were processed

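Peaks of 2 ETS1 and 2 RUNX1 CUT&Tag libraries of 6T-CEM cells were used as deposited. Per the submitters' processing notes, the tools included MACS3 3.0.0a6, bcl2fastq 2.17 and Bowtie2, whose version is not stated there, with build hg38. Peaks were called per library against IgG, per the names of the peaks in the deposited lists. Call threshold, duplicate handling and alignment filters: none is given in the sources used here. The deposited files give for each peak the authors' fold enrichment (a ratio), −log10 p and −log10 q at the summit, an integer score and the summit offset. The libraries held 6070 and 5611 ETS1 peaks and 25356 and 24997 RUNX1 peaks, and the lowest −log10 q was 5.00 to 5.03. Total reads per library are unknown, and the summit stack (median 54 and 51 for ETS1 peaks, 75 and 71 for RUNX1 peaks) is the depth behind a fold.

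Members and gene lists were chosen with earlier results of these data known. Genes came from RefSeq (GRCh38.p14): 19821 protein-coding genes and 38598 non-coding genes and pseudogenes on the chromosomes used. Regions on chromosome Y and on scaffolds were left out. A non-coding end counted within 1000 bp of a midpoint, and a listed gene had a member within 100 kb. Stack and IgG expectation were solved from fold and Poisson p, and the solution was tested on simulated data. By the rule for names, the text draws on the 10 members highest in ETS1 fold, in RUNX1 fold and in the lower of both, the 5 at each end of the ratio of ETS1 to RUNX1, up to 10 per type of non-coding gene end, the 5 largest groups, listed genes with a member within 100 kb, the 3 regions on either side of the 1000 bp limit and the 5 farthest members. A choice made after values were seen is stated as such. Some listed genes are counted but not reported by name here. Shares have Wilson intervals (95%), and libraries were compared by exact two-sided permutation. Alternatives covered the −log10 q minimum, the overlap, the distances, the gene types, equal peak numbers, libraries left out and a replicate block. Python 3.11.15, numpy 2.4.6, pandas 2.3.3, scipy 1.17.1, statsmodels 0.14.6 and matplotlib 3.10.9 were used.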

Additional observations from a re-analysis of the deposited data

How the results depend on the processing

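The number of members was 770 with all peaks, and it was 344 with −log10 q of at least 20, 302 under a reciprocal overlap of 50%, 369 outside genes of any type, 507 with equal peak numbers, and 869 to 954 when 1 library of each factor was left out. The share of members at a non-coding gene end (37.7%) was 43.9% with −log10 q of at least 20, 45.7% under reciprocal overlap, 40.6% beyond 5000 bp from coding genes, 33.9% with equal peak numbers, 23.4% with lncRNA genes only, 29.9% within 500 bp, 44.4% within 2000 bp, and 35.1% to 36.4% with a library left out. With 1 member per group, or with the ETS1 summit in place of the midpoint, it was 37.7%. These 2 alternatives were chosen after seeing the data. The share has no value outside genes of any type, where such ends are excluded by the rule. The share of RUNX1 regions outside genes with ETS1 (11.8%) was 10.8% and 8.13% with −log10 q of at least 10 and 20, 4.94% under reciprocal overlap, 9.02% outside genes of any type, 36.6% with equal peak numbers, and 11.8% to 12.9% with a library left out. With the replicate number as a block the differences between ETS1 and RUNX1 libraries were 16.8 percentage points and −4117.5 bp (exact sign-flip permutation, p = 0.5 each, the smallest that 2 pairs allow), and they kept their direction in every alternative, from 13.3 to 22.2 points and from −6399.5 to −3884 bp. Causes were not tested. With 2 libraries per factor no test here could pass 0.05, a stack of few reads limits the fold of weak members, and multicopy genes cannot be placed to a copy.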

Other observations

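The following regions were chosen after their values were seen. On chromosome 14, 4 members between 98136096 and 98210599 had BCL11B, which encodes a transcription factor of T-cell commitment, as their nearest protein-coding gene, 959006 to 1032979 bp away. Their mean ETS1 folds ran from 4.18 to 8.50, and the highest RUNX1 folds were 85.1 and 90.9. On chromosome 6, 3 members had CD83, a surface protein of activated immune cells, as their nearest protein-coding gene, 312550 to 537582 bp away.

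Members were spread unevenly over chromosomes. Chromosome 17 held 11.7% of members and 6.68% of RUNX1 regions outside genes without ETS1, chromosome 19 held 8.83% and 4.99%, chromosome 1 held 11.8% and 9.54%, and chromosome 4 held 1.17% and 2.87%.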
